A study of Homo sapiens with 3 samples.

Results

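Described here are 10 transcripts of the NF-kB pathway in DU145 cells: the chemokines CXCL1, CXCL2, CXCL3 and CXCL8, the cytokines IL6, IL1A and IL1B, and BIRC3, TNFAIP3 and NFKBIA. They were 10 of 23379 genes listed over the 3 libraries, matched by Ensembl identifier, and 6 of them had a mean of at least 1 FPKM over the 3 libraries. The genes were selected on the measured FPKM differences of L597R from P-Enter and from WT, so the values below describe them and are not tested. DU145 is an established human line grown from a prostate carcinoma metastasis. RNA was sequenced from 3 libraries, 1 in each group: L597R, into which a plasmid of mutant BRAF (L597R) was transfected, WT, made to overexpress wild-type BRAF, and P-Enter, given only as the negative control. Whether a line was a clone or a pool, and how long after transfection cells were taken, was not given in the sources used here. Since each group had 1 library, differences could not be set against a spread between replicates and are given without p-values.

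NF-kB is a family of transcription factors that IkB proteins, of which NFKBIA is the best known, hold in the cytoplasm. Signals from tumour necrosis factor, interleukin-1 or Toll-like receptors activate the IKK kinases, IkB is degraded, and dimers such as RELA with NFKB1 enter the nucleus. There they switch on chemokines and cytokines together with their own brakes, NFKBIA and TNFAIP3. DU145 cultures are known for NF-kB activity without an added stimulus and for release of IL6 and CXCL8. In the libraries described here, however, IL6 RNA was at the edge of detection, with 1 read in L597R, 0 in WT and 2 in P-Enter.

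The promoters of the 4 chemokines, BIRC3 and NFKBIA are shown because NF-kB is known to act through sites in the promoters of its targets. Each run is the 250 bases before the start of the RefSeq gene (GRCh38.p14), 5′ to 3′ on the gene's strand. Capitals mark matches to the NF-kB consensus, a motif of 10 bases, or, in CXCL8, the 9 bases GGAATTTCC; in CXCL1, CXCL2 and CXCL3 a match on each strand overlaps, which gives 11 capitals. CXCL1 is chr4:73869143-73869392 on the plus strand, CXCL2 is chr4:74099196-74099445 on the minus strand and CXCL3 is chr4:74038690-74038939 on the minus strand. CXCL8 is chr4:73740319-73740568 on the plus strand, BIRC3 is chr11:102317234-102317483 on the plus strand and NFKBIA is chr14:35404750-35404999 on the minus strand.
CXCL1: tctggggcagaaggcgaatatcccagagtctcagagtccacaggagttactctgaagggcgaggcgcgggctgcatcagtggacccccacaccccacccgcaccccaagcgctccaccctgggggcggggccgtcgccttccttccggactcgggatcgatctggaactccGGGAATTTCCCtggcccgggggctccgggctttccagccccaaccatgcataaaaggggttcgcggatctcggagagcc
CXCL2: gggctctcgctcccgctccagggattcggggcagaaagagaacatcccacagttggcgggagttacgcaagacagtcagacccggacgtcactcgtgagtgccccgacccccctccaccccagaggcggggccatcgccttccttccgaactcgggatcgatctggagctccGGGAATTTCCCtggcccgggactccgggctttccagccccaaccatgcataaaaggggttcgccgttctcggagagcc
CXCL3: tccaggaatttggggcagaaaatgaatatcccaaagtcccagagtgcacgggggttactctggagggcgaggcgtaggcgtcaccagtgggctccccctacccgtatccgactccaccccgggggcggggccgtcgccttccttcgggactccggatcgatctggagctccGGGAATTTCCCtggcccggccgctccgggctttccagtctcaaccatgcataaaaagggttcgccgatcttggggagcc
CXCL8: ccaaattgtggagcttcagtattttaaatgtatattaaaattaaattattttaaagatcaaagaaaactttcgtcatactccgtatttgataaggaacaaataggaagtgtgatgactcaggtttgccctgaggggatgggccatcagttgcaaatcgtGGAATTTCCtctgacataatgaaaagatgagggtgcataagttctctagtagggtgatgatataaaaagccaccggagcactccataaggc
BIRC3: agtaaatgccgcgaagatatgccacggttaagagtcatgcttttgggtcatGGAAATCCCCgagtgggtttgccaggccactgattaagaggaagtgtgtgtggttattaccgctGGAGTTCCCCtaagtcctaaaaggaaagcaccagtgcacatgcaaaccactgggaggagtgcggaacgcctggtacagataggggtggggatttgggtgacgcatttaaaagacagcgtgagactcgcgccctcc
NFKBIA: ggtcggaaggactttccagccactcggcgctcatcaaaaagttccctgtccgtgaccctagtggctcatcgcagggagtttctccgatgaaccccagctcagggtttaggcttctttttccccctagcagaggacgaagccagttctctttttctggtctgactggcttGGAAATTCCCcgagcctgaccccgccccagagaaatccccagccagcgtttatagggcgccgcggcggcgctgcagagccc

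All 10 members had a promoter in the RefSeq table, and IL1A had 2, so 11 windows were searched on both strands. The NF-kB consensus was found in 7 of the 10 members (BIRC3, CXCL1, CXCL2, CXCL3, IL6, NFKBIA and TNFAIP3) and in 9.96% of all 35116 promoter windows of that length. The stretch GGAATTTCC was in 5 members, CXCL1, CXCL2, CXCL3, CXCL8 and NFKBIA, and in 0.413% of windows. It was picked after the sequences had been seen, and in CXCL1, CXCL2, CXCL3 and NFKBIA it lies within the consensus match. TGANTCA, the site of AP-1 factors, was in CXCL8 and IL1A and in 6.57% of windows. In CXCL1 and CXCL3 the consensus match ended 70 bases before the start, and the CXCL8 stretch ended 83 bases before it, with TGACTCA from 137 to 131 bases before it. BIRC3 had 2 matches on the minus strand, from 199 to 190 and from 135 to 126 bases before the start. The CXCL1 and CXCL3 windows were 81.4% identical, the CXCL2 window was 73.3% identical to CXCL3 and 68.0% to CXCL1, and the CXCL8 window was 40.5 to 45.0% identical to the 3 others. A match is a description of letters and not of binding.

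The libraries rested on 16603676 counted reads in L597R, 15665132 in WT and 13294004 in P-Enter, worked out from the FPKM values, so 1 read was worth 0.0602 to 0.0752 CPM. BRAF was at 9.59 FPKM in L597R, 4.41 in WT and 1.65 in P-Enter, so between L597R and WT a mutated kinase and a higher BRAF level cannot be told apart. The label was checked with marker genes: the summed level of 5 epithelial markers was 65.0 FPKM in L597R, 64.4 in WT and 64.0 in P-Enter, carried by KRT18 and KRT7. The epithelial cadherin CDH1 had 0, 0 and 1 reads in those libraries. Mesenchymal markers summed to 152, 146 and 148 FPKM over 6 of 7 listed genes, most of it VIM. Of these ZEB1 was at 4.79 FPKM in L597R, 3.33 in WT and 2.72 in P-Enter. Its ratio of L597R to P-Enter was 1.76 (1.54 to 2.02), and 1.44 (1.26 to 1.65) after correction. CDH2 and FN1 went the other way after correction, at 0.914 (0.841 to 0.994) and 0.926 (0.865 to 0.990). For VIM the corrected interval held 1 (1.02, 0.994 to 1.05). The part of ZEB1 in the members' values was not tested. Markers of leukocytes, a known source of these cytokines, summed to 0.247, 0.0545 and 0.385 FPKM over 5 of 10 listed genes, none at a mean of 1 FPKM, and those of endothelial cells to 0.165, 0.146 and 0.242 FPKM over 5 of 5. The other markers of these lists were not analysed here.

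The deposited values moved with GC content. Across 9358 protein-coding genes at a mean of at least 1 FPKM, Spearman's rho between GC content of the longest transcript and the difference in log2(FPKM + 1) was -0.45 when WT was set against P-Enter, -0.69 when L597R was, and -0.59 between L597R and WT; genes of 2 libraries are not independent points. The median difference of L597R from P-Enter was 0.31 on the log2 scale for 316 genes under 36% GC, 0.01 for 1455 genes from 44 to 48% and -0.13 for 3325 genes at or above 52%. The members spanned this range. CXCL8 had 33.4% GC and BIRC3 34.8%, CXCL1 had 45.6% and CXCL2 46.0%, TNFAIP3 had 49.5%, CXCL3 50.5% and NFKBIA 53.1%. Read ratios of members with a trend are therefore given as deposited and after division by the trend for genes of their GC content, length and expression (corrected), apart from the sums of genes and the cytokines with 5 reads or fewer. Bounds in parentheses are exact 95% limits of that ratio for counting error alone. They set 1 library beside another and say nothing of the spread between cultures.

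**Figure D1:**
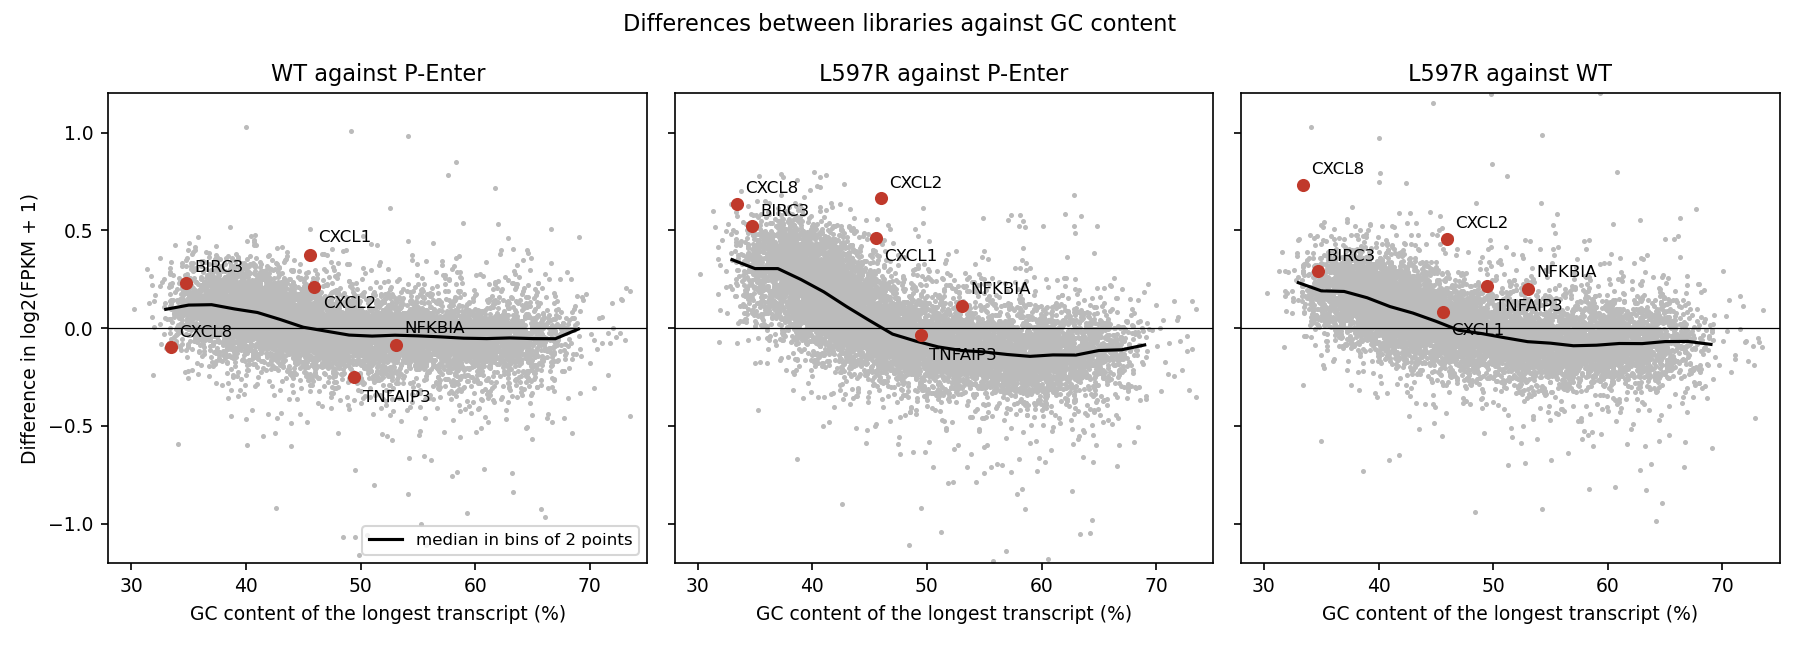
Difference in log2(FPKM + 1) (vertical axis) against GC content of the longest transcript in percent (horizontal axis), 1 panel per comparison; grey points are protein-coding genes with a mean of at least 1 FPKM, the line is their median in bins of 2 percentage points, red points are the 6 members at that level, and genes beyond the vertical limits are not drawn. In L597R against P-Enter, CXCL8 (0.64) and BIRC3 (0.52) sit where the line is high, while CXCL2 (0.67) and CXCL1 (0.46) sit where it is near 0.

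CXCL1, CXCL2, CXCL3 and CXCL8 are chemokines that draw neutrophils through the receptors CXCR1 and CXCR2, and their genes lie in 1 cluster on chromosome 4. CXCL2 was the chemokine with the highest ratio that outlasted the GC correction against P-Enter. It had 3.32 FPKM in L597R, 2.15 in WT and 1.72 in P-Enter, from 77, 47 and 32 reads. L597R was the high library, with WT between it and P-Enter. The read ratio of L597R to P-Enter was 1.93 (1.26 to 3.01) as deposited and 1.89 (1.24 to 2.95) after correction. Against WT it was 1.55 (1.06 to 2.27) and 1.49 (1.02 to 2.18), and for WT against P-Enter the interval held 1, at 1.25 (0.779 to 2.02) and 1.27 (0.795 to 2.06).

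CXCL1, the chemokine with the highest level, was lower in P-Enter than in the other libraries. Its level was 8.80 FPKM in L597R, 8.25 in WT and 6.13 in P-Enter, from 199, 176 and 111 reads. WT lay between L597R and P-Enter and nearer to L597R. The ratio to P-Enter was 1.44 (1.13 to 1.83) for L597R and 1.35 (1.06 to 1.72) for WT, and after correction 1.37 (1.08 to 1.75) and 1.35 (1.06 to 1.73). L597R and WT were not told apart by their reads, with a ratio of 1.07 (0.867 to 1.31), or 1.01 (0.824 to 1.25) after correction. In bulk RNA, fewer cells of a type and less RNA per cell cannot be told apart.

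In the deposited values CXCL8, which encodes interleukin-8, was high in L597R alone. It was at 2.80 FPKM in L597R, 1.28 in WT and 1.44 in P-Enter, from 104, 45 and 43 reads. WT and P-Enter lay close together (WT against P-Enter 0.888, 0.572 to 1.38; corrected 0.806, 0.519 to 1.25). The ratio of L597R to P-Enter was 1.94 (1.35 to 2.83) as deposited, where genes of the same GC content, length and expression had a trend of 1.38, and 1.41 (0.976 to 2.06) after correction. That interval held 1, and so did the one after a regression on GC content alone (log2 ratio 0.47). With the median of 20 GC bins taken out instead, it stayed above 1 (log2 ratio 0.58, 0.054 to 1.13). Whether the CXCL8 reads of L597R exceeded those of P-Enter beyond counting error thus depended on the correction. Against WT the ratio was 2.18 (1.52 to 3.17) as deposited and 1.74 (1.22 to 2.53) after correction.

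CXCL3 was the lowest of the 4 chemokines, at 0.787 FPKM in L597R, 0.748 in WT and 0.712 in P-Enter from 29, 26 and 21 reads. Its interval held 1 in every comparison, with a ratio of 1.11 (0.609 to 2.04) for L597R against P-Enter, or 1.21 (0.667 to 2.23) after correction. For WT against P-Enter it was 1.05 (0.568 to 1.96) and 1.13 (0.609 to 2.11), and for L597R against WT 1.05 (0.598 to 1.86) and 1.08 (0.611 to 1.90). CXCL1, CXCL2 and CXCL3 are close copies: of the runs of 50 bases in their exons, 4.81% in CXCL1, 12.5% in CXCL2 and 6.01% in CXCL3 also occur in another of the 3, and how such reads were assigned was not given in the sources used here. Their sum, given as deposited, does not depend on how shared reads were split among the 3, but it does on whether such reads were counted. It was 305 reads in L597R, 249 in WT and 164 in P-Enter, a ratio to P-Enter of 1.49 (1.23 to 1.81) in L597R and 1.29 (1.05 to 1.58) in WT. Set against WT, L597R had 1.16 (0.974 to 1.37). CXCL6, PF4V1, PF4, PPBP and CXCL5, which lie between CXCL8 and CXCL2, were not analysed here.

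In GRCh38 with GENCODE 29, CXCL8 (ENSG00000169429) runs from 73740506 to 73743716 and CXCL1 (ENSG00000163739) from 73869393 to 73871242 on the plus strand. CXCL3 (ENSG00000163734) runs from 74036589 to 74038807 and CXCL2 (ENSG00000081041) from 74097035 to 74099293 on the minus strand. The trend at 45.6% GC and the level of CXCL1 was 1.05 for L597R against P-Enter, and at the values of CXCL2 it was 1.02, so the correction moved these little.

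**Figure D2:**
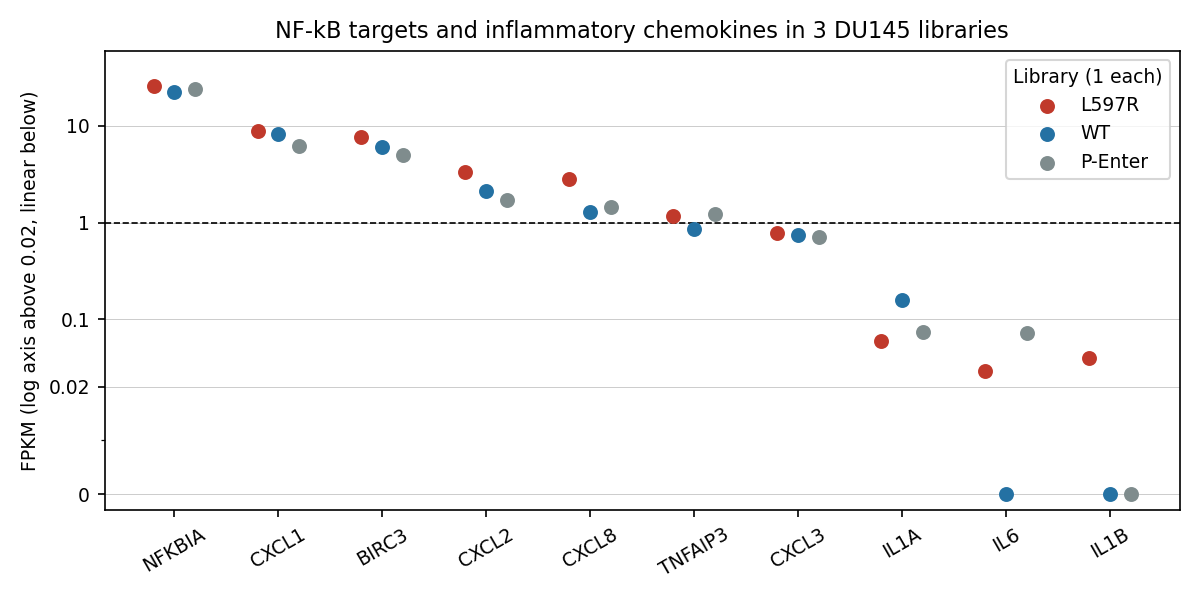
FPKM of each of the 10 members in L597R, WT and P-Enter, 1 point per library, on an axis that is logarithmic above 0.02 FPKM and linear below it; the dashed line is at 1 FPKM. NFKBIA is the highest member in all 3 libraries (26.1, 22.6 and 24.0 FPKM), and IL6, IL1A and IL1B lie at or under 0.158 FPKM.

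The cytokines IL6, IL1A and IL1B were at the edge of detection in all 3 libraries. IL6, the ligand of the gp130 receptor, had 1 read in L597R, 0 in WT and 2 in P-Enter, or 0.0291, 0 and 0.0727 FPKM. IL1A, an alarmin of the interleukin-1 family, had 2, 5 and 2 reads, and IL1B, its secreted relative, had 2, 0 and 0. A count of 0 allows up to 3 reads. No difference between libraries was detectable at this depth: the ratio of IL1A was 2.12 (0.347 to 22.3) between WT and P-Enter and 0.377 (0.0359 to 2.31) between L597R and WT, and no ratio is given where both libraries had 3 reads or fewer. IL6 overlaps STEAP1B on the opposite strand, which had 178, 160 and 115 reads. IL6 (ENSG00000136244) lies on chromosome 7 from 22725884 to 22732002, IL1A (ENSG00000115008) on chromosome 2 from 112773915 to 112784590 and IL1B (ENSG00000125538) on chromosome 2 from 112829751 to 112836903.

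BIRC3, NFKBIA and TNFAIP3 act inside the cell, and the correction moved them in different directions. BIRC3, the ubiquitin ligase cIAP2 of tumour necrosis factor receptor complexes, had 7.63 FPKM in L597R, 6.06 in WT and 5.01 in P-Enter, from 953, 714 and 501 reads. The libraries stood in that order in the deposited values. The ratio to P-Enter was 1.52 (1.37 to 1.70) for L597R and 1.21 (1.08 to 1.36) for WT, but the trend for genes like it was 1.36 and 1.13. After correction they were 1.12 (1.01 to 1.25) and 1.07 (0.957 to 1.21), and L597R against WT was 1.05 (0.948 to 1.15) in place of 1.26 (1.14 to 1.39). On the plus strand of chromosome 11, BIRC3 (ENSG00000023445) spans 102317450 to 102339403.

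NFKBIA, the IkB-alpha inhibitor that binds NF-kB dimers, had 26.1 FPKM in L597R, 22.6 in WT and 24.0 in P-Enter, from 1027, 839 and 758 reads. L597R was highest and WT lowest. Its GC-rich transcript belonged to genes with a trend of 0.920 for L597R against P-Enter, so the ratio of 1.08 (0.987 to 1.19) became 1.18 (1.07 to 1.30) after correction. Against WT it was 1.15 (1.05 to 1.27), and 1.20 (1.09 to 1.31) after correction, while WT and P-Enter were not told apart (0.939, 0.850 to 1.04; corrected 0.983, 0.890 to 1.09). On the minus strand of chromosome 14, NFKBIA (ENSG00000100906) spans 35401511 to 35404749.

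TNFAIP3, the ubiquitin-editing enzyme A20 that ends the signal to IKK, had 1.16 FPKM in L597R, 0.864 in WT and 1.21 in P-Enter, from 97, 68 and 81 reads. WT was the low library. The ratio of WT to P-Enter was 0.712 (0.508 to 0.996) as deposited and 0.750 (0.535 to 1.05) after correction, and rescaling the totals by the median ratio of all genes also brought 1 into the interval. For L597R the ratio to P-Enter was 0.959 (0.706 to 1.30), or 1.04 (0.763 to 1.41) after correction. That to WT was 1.35 (0.977 to 1.86) as deposited and 1.38 (1.003 to 1.91) after correction, and with a regression on GC content alone the interval held 1. An antisense gene at the locus, AL357060.1, had 8 reads in L597R, 6 in WT and 8 in P-Enter. On the plus strand of chromosome 6, TNFAIP3 (ENSG00000118503) spans 137867188 to 137883312.

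Counted together, none of the 10 members reached a difference of 1 in log2(FPKM + 1) with a mean of at least 1 FPKM. Among all genes that rule held for 0.376% higher and 0.602% lower in WT against P-Enter, 0.301% and 0.508% in L597R against P-Enter, and 0.348% and 0.376% in L597R against WT. Set against P-Enter, L597R had an interval above 1 for 4 members (CXCL1, CXCL2, CXCL8 and BIRC3), against 25.6% of all genes at that level, and below 1 for 0, against 23.9%. After correction it lay above 1 for 4 (CXCL1, CXCL2, BIRC3 and NFKBIA), against 17.3% of protein-coding genes, and below 1 for 0, against 16.8%. In WT against P-Enter it lay above 1 for CXCL1 and BIRC3, against 14.0% of genes, and below 1 for TNFAIP3, against 12.1%. After correction CXCL1 was the member above 1, against 10.3%, and 0 lay below, against 10.8%. In L597R against WT it lay above 1 for CXCL2, CXCL8, BIRC3 and NFKBIA, against 22.1%, and below 1 for 0, against 16.3%. There CXCL2, CXCL8, TNFAIP3 and NFKBIA were above 1 after correction, against 14.0%, and 0 below, against 13.4%. Since the members were picked with these contrasts known, nothing is read from the counts.

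**Figure D3:**
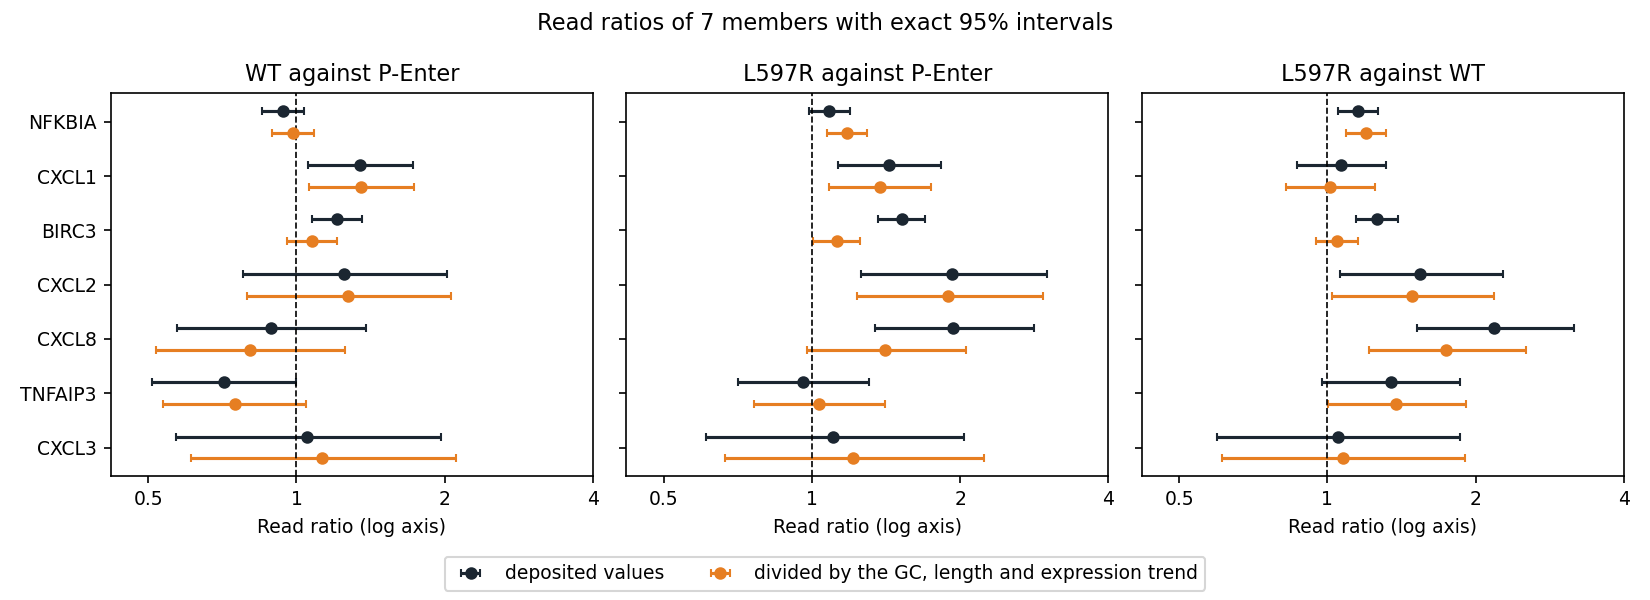
Read ratio with its exact 95% counting interval (horizontal log axis) for the members with enough reads, 1 panel per comparison, as deposited (dark) and after division by the trend on GC content, length and expression (orange). In L597R against P-Enter the correction moves CXCL8 from 1.94 to 1.41 and BIRC3 from 1.52 to 1.12. It moves CXCL2 from 1.93 to 1.89, CXCL1 from 1.44 to 1.37 and NFKBIA from 1.08 to 1.18.

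Over all 10 members the median difference in log2(FPKM + 1) was 0.09 for L597R against P-Enter, 0.14 for L597R against WT and 0.02 for WT against P-Enter, where the median of all genes with a mean of at least 1 FPKM was -0.01, 0.01 and -0.00. Over the 6 members that passed that filter it was 0.49, 0.25 and 0.06, which describes them only. After the regression the medians of all 10 were 0.17, 0.07 and 0.06, and those of the 6 were 0.23, 0.25 and 0.03. For all 10 in WT against P-Enter, the median of 0.06 lies between the values of IL1A (0.080) and IL1B (0.037). IL1A had 5 and 2 reads in those libraries and IL1B had 0 and 0. The regression was fitted on genes with a mean of at least 1 FPKM, so this median says little of these cytokines. The comparisons share libraries, so their values are set side by side and their likeness is no result. The 6 members at a mean of at least 1 FPKM ranged from -0.03 (TNFAIP3) to 0.67 (CXCL2) in L597R against P-Enter.

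The transcripts also differed in the AU-rich element TTATTTATT, by which short-lived cytokine mRNAs are marked for decay. It occurred 5 times in the longest transcript of CXCL2, 3 times in CXCL1, 2 times each in BIRC3 and IL1B and 1 time each in CXCL8 and TNFAIP3. IL6, IL1A, CXCL3 and NFKBIA had 0 of this run, but held the shorter AU-rich run ATTTA 6, 5, 3 and 3 times. No share over all genes was worked out for ATTTA. Of 9358 protein-coding genes at a mean of at least 1 FPKM, 11.5% held TTATTTATT, and of the 4905 among them under 48% GC, 16.1% did.

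Genes closest to CXCL8 in their differences of WT and of L597R from P-Enter, by Euclidean distance among 9356 protein-coding genes, were FAM72C (0.00870), SMN2 (0.116), SFN (0.132), NXT2 (0.140) and TNFRSF11B (0.147). FAM72C and SMN2 have near-identical copies, so their reads are uncertain. TNFRSF11B, the decoy receptor osteoprotegerin, was at 4.03 FPKM in L597R, 2.47 in WT and 2.55 in P-Enter. The distance rests on 3 libraries and those 2 differences share P-Enter. It was taken on deposited values, without correction for GC content. That was 33.4% in CXCL8, and 42.4, 41.8, 62.8, 35.3 and 42.5% in the named genes, in the order given.

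Other genes of the pathway were taken from 6 lists of 120 genes in all, chosen with earlier results known; 72 had a mean of at least 1 FPKM. Between L597R and P-Enter the interval lay above 1 for 19 and below 1 for 19 (26.4% each, against 25.6% and 23.9% of all genes). After correction it lay above 1 for 16 (22.2%, against 17.3%) and below 1 for 7 (9.72%, against 16.8%). Among 8 NF-kB subunits and IkB proteins the interval lay above 1 for 0 and below 1 for 2, with a median difference of 0.00, and of 0.12 after the regression. RELA was at 22.6 FPKM in L597R, 22.2 in WT and 22.9 in P-Enter, and NFKB1 at 16.9, 16.7 and 16.1. The interval lay below 1 for NFKB2 (ratio 0.903, 0.833 to 0.980; corrected 1.02), the precursor of p52, and for NFKBIB (0.701, 0.492 to 0.996; corrected 0.808), a further IkB. After correction it lay above 1 for RELA (1.11, 1.04 to 1.18) and NFKB1 (1.10, 1.02 to 1.18) and below 1 for 0. REL, under the filter and named after its values were seen, had 124 reads in L597R, 69 in WT and 49 in P-Enter (L597R against P-Enter 2.03, 1.44 to 2.88, and 1.71 after correction).

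Among 21 genes of the IKK complex and its adaptors, the interval lay above 1 for 6 and below 1 for 4 in L597R against P-Enter, or 28.6% and 19.05%, near the 25.6% and 23.9% of all genes. After correction it did for 4 and 2 (19.05% and 9.52%, against 17.3% and 16.8%). The median difference was 0.03 as deposited and 0.06 after the regression. CHUK, the IKK-alpha kinase, lay above 1 as deposited (1.11, 1.02 to 1.22) and below 1 after correction (0.857, 0.781 to 0.940); it was named after its values were seen. TBK1, an IKK-related kinase, was at 3.35 FPKM in L597R, 2.49 in WT and 2.32 in P-Enter (L597R to P-Enter 1.44, 1.28 to 1.62; corrected 1.22, 1.09 to 1.37). Higher ratios were also seen for TAB3 (1.37, corrected 1.15), MAP3K7 (1.31, corrected 1.07), the TAK1 kinase, and TRAF6 (1.26, corrected 1.13), the adaptor of interleukin-1 signalling, and their corrected intervals held 1. Lower ratios were seen for IKBKE (0.661, 0.494 to 0.882; corrected 0.764), TRAF2 (0.789, 0.710 to 0.878), TAB1 (0.876, corrected 0.991) and IRAK1 (0.925), of which TRAF2 kept its interval below 1 after correction (0.892, 0.802 to 0.992). IRAK1 turned to 1.06 (1.03 to 1.09).

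Of 29 further chemokines and cytokines, 14 had values and 5 a mean of at least 1 FPKM, with a median difference of 0.12. CCL20, which draws cells bearing CCR6, was at 1.70 FPKM in L597R, 1.40 in WT and 0.802 in P-Enter (L597R against P-Enter 2.12, 1.19 to 3.95; corrected 1.64, 0.923 to 3.07). IL18, a cytokine of the interleukin-1 family, was at 1.46, 1.15 and 0.837 FPKM (1.74, 1.10 to 2.80; corrected 1.51, 0.956 to 2.43). LIF, a ligand of the gp130 receptor, was lower (0.927, 0.864 to 0.995; corrected 1.04, 0.972 to 1.12). As deposited the interval lay above 1 for 2 and below 1 for 1 of the 5 (40% and 20%, against 25.6% and 23.9% of all genes). After correction it did for 1 and 0 (20% and 0%, against 17.3% and 16.8%). The 1 above was CSF1, named after its values were seen (1.10, 0.989 to 1.21; corrected 1.24, 1.12 to 1.37).

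Of 18 other NF-kB targets the interval lay above 1 for 4 and below 1 for 5, or 22.2% and 27.8%, near the shares of all genes (25.6% and 23.9%). After correction it did for 6 and 3 (33.3% and 16.7%, against 17.3% and 16.8%). The median difference was -0.03 as deposited and 0.01 after the regression. BIRC2, the neighbour and relative of BIRC3 that encodes cIAP1, had a ratio of 1.52 (1.43 to 1.63), the same as BIRC3 to 3 digits, and 1.24 (1.16 to 1.32) after correction; it was at 36.2 FPKM in L597R, 25.7 in WT and 23.7 in P-Enter. Higher ratios also came from TNFAIP8 (1.34, 1.12 to 1.60; corrected 1.17, 0.977 to 1.40), CYLD (1.16; corrected 0.968, on the other side of 1), a deubiquitinase that restrains the pathway, and the transcription factor KLF6 (1.15, 1.09 to 1.21; corrected 1.12, 1.06 to 1.18). PLAU, the urokinase protease, was lower at 87.0 FPKM in L597R and 103 in P-Enter (0.841, 0.806 to 0.878; corrected 0.935, 0.896 to 0.976). CFLAR, an inhibitor of caspase-8, had a ratio of 0.886 (corrected 0.797, 0.732 to 0.867). BCL2L1, which encodes BCL-XL, was at 0.869 (corrected 0.981) and SQSTM1, the p62 scaffold, at 0.922 (corrected 1.03).

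**Figure D4:**
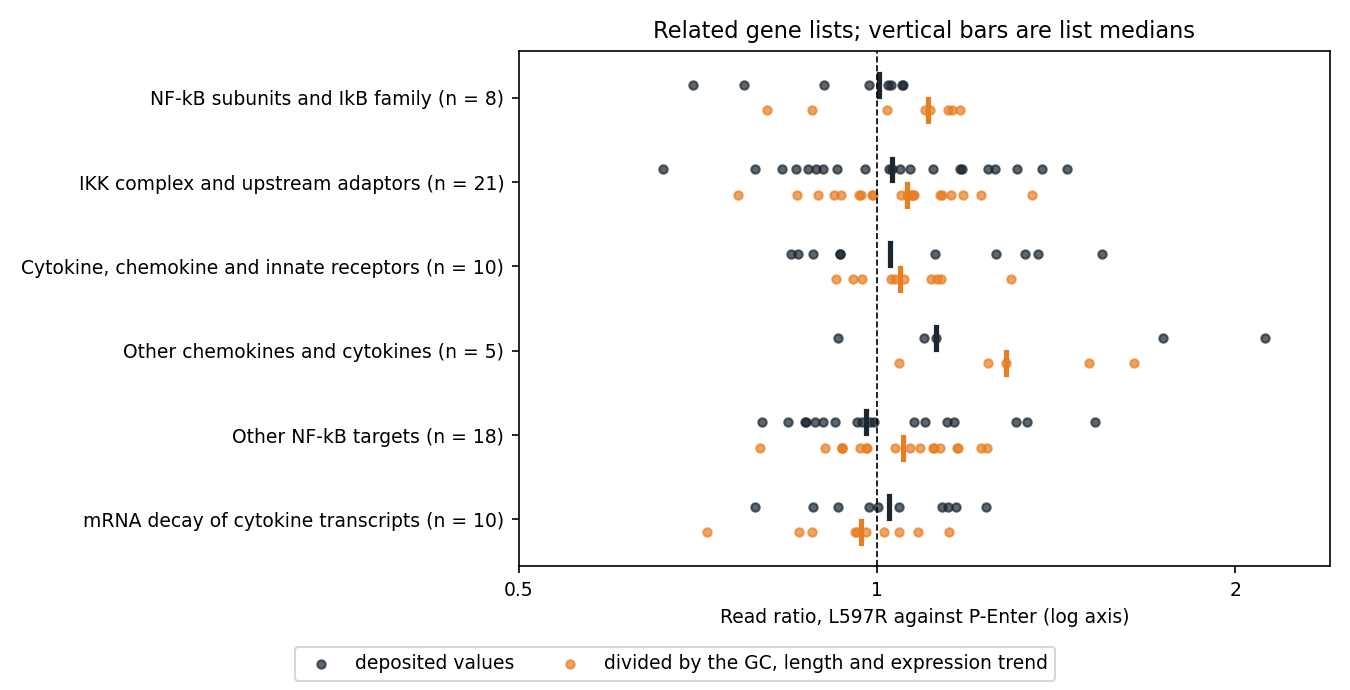
Read ratio of L597R to P-Enter (horizontal log axis) for each gene with a mean of at least 1 FPKM in 6 lists of related genes, as deposited (dark) and after division by the trend on GC content, length and expression (orange); vertical bars are list medians and the 10 members are not included. Points lie on both sides of 1 in each list as deposited, and CCL20 (2.12) and IL18 (1.74) lie farthest to the right.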

How the data were processed

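RNA of 3 libraries was sequenced; groups came from the sample titles. Trizol was used for RNA and a stranded kit for mRNA libraries, per the labels' protocols. Trimmomatic, HISAT2, Cufflinks and HTSeq were run with hg38/GRCh38, per the submitters' processing notes. The sources used here give no versions, no annotation release and no strand setting of the counting, so reads of overlapping antisense genes cannot be told apart. FPKM for each Ensembl gene was deposited by the authors, per the file headers, with no rescaling stated. Genes without a row were not analysed here; all 10 members had one.

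FPKM is a whole number of reads over length and library total. Totals and lengths giving whole reads in all libraries (tolerance 1e-05, length within 4-fold of GENCODE 29 exons) were found for 22594 genes (96.6%), 87.8% of them within 10% of the exon length. From them came 95% limits of each read ratio (exact, Clopper-Pearson, given the summed reads); PCR copies are no independent molecules, so the limits hold for counting error only. The whole reads found for 96.6% of genes summed to 100.4% of the total in each library. Some of them may thus be wrong, and the reason was not tested. A fold on the log2(FPKM + 1) scale understates the change of low genes. The size rule asked for a difference of 1 and a mean of 1 FPKM. The GC trend was a regression with cubic terms in GC content, log length and log mean FPKM over 9358 protein-coding genes; intervals leave out its own error. Code was tested on simulated data. No count model was fitted, since a group has 1 library.

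Members and lists were chosen with earlier results of these data known. Named were all members, up to 4 genes per list and direction with an interval leaving out 1 (L597R against P-Enter, largest ratio first), and the 5 genes nearest CXCL8. RELA, NFKB1, REL, CHUK and CSF1 were named after their values were seen. Alternatives were other pseudocounts, filters, thresholds, totals and GC corrections. Promoters came from RefSeq (GRCh38.p14). Software was Python 3.11.15 with scipy 1.17.1, pandas 2.3.3, numpy 2.4.6 and matplotlib 3.10.9.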

Additional observations from a re-analysis of the deposited data

How the results depend on the processing

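In WT against P-Enter the number of members with an interval above 1 moved from 2 to 1 under each GC correction (the regression, GC content alone and 20 GC bins) and to 0 for an interval beyond 1.5-fold. The number below 1 moved from 1 to 0 under those settings and with totals rescaled by the median ratio. In L597R against P-Enter the number above 1 moved from 4 to 0 beyond 1.5-fold and to 5 with GC bins, which kept CXCL8 and added NFKBIA. In L597R against WT it moved from 4 to 1 beyond 1.5-fold and to 3 with GC content alone. The size rule found 2 members at 1.5-fold in L597R against P-Enter, and 1 member in L597R against WT at 1.5-fold or with a pseudocount of 0.1, in place of 0. GC content alone and the GC bins were added after the data were seen. The members' median difference of L597R from P-Enter was 0.09 and ranged from 0.058 (pseudocount 5) to 0.49 (mean of at least 1 FPKM), with 0.31 at a pseudocount of 0.1. For L597R against WT it was 0.14, between 0.065 (pseudocount 5) and 0.35 (pseudocount 0.1). After the regression the log2 ratio of L597R to P-Enter lay on the other side of 0 for 18 of 72 related genes. The 10 named by the rule were NFKB2 0.026, IRAK1 0.083, LTBR 0.049, LIF 0.062, CYLD -0.047, SQSTM1 0.049, KHSRP 0.018, CNOT7 -0.22, RC3H1 -0.062 and RC3H2 -0.032. The cause of the GC trend was not tested, and with 1 library a group it cannot be told apart from the conditions. Members under 1 FPKM are limited by depth. No library could be left out. Of 38 related genes whose interval left out 1, 25 held 1 after the regression, 10 kept their side and 3 (CHUK, CNOT7 and IRAK1) lay on the opposite side. No paired analysis was possible because each group has 1 library and no replicate number.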

Other observations

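Of 22 listed receptors of cytokines, chemokines and innate signals, 16 had values and 10 a mean of at least 1 FPKM. In L597R against P-Enter the interval lay above 1 for 3 (IL6ST, IL1RAP and TLR3) and below 1 for 4 (IL4R, TNFRSF1A, TNFRSF10B and LTBR), against 25.6% and 23.9% of all genes, with a median difference of 0.01. The 3 had 36.6 to 41.7% GC and the 4 had up to 58.1%, with TNFRSF10B, at 50%, the lowest of them, and the part of GC content in these ratios was not tested beyond the correction given here. IL6ST, the gp130 subunit shared by the receptors of IL6 and LIF, was at 22.7 FPKM in L597R, 18.6 in WT and 16.7 in P-Enter. Its ratio of L597R to P-Enter was 1.37 (1.30 to 1.44), and 1.05 after correction at 36.6% GC. TNFRSF1A, the main receptor of tumour necrosis factor, was at 35.6, 39.9 and 41.5 FPKM (0.858, 0.810 to 0.910; corrected 0.972) at 57.5% GC. IL1RAP, the shared subunit of the interleukin-1 receptors, had a ratio of 1.26 (corrected 1.13). After correction the interval lay above 1 for 1 receptor and below 1 for 0, against 17.3% and 16.8%.

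Of 10 genes that act in the decay of cytokine mRNAs, the interval lay above 1 for 4 and below 1 for 3 in L597R against P-Enter, against 25.6% and 23.9% of all genes. After correction it did for 2 and 2, near the shares of 17.3% and 16.8%. ZFP36, the tristetraprolin protein that binds AU-rich elements, was at 8.35 FPKM in L597R, 9.69 in WT and 10.6 in P-Enter (L597R against P-Enter 0.789, 0.665 to 0.936; corrected 0.882, 0.744 to 1.05). HNRNPD, the AUF1 protein that binds the same elements, was at 78.6, 87.8 and 84.8 FPKM (0.927, 0.900 to 0.956; corrected 0.720, 0.698 to 0.742). KHSRP, a further decay factor, was at 88.0 FPKM in L597R and 99.7 in P-Enter (0.883; corrected 1.01). Of the CCR4-NOT deadenylase, CNOT1 had a ratio of 1.13 (corrected 1.08) and CNOT7 of 1.15 (corrected 0.860). RC3H1 and RC3H2, the roquin proteins, were at 1.16 and 1.23 (corrected 0.958 and 0.978).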
